A study of Mus musculus with 6 samples.

Results

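A set of 10 genes that mark oligodendrocyte precursor cells and the first steps of their differentiation were examined in the hippocampus of mice 24 h after traumatic brain injury (TBI). The 10 genes were chosen by symbol from the 52550 genes in the count files, by a rule that uses no measured value of these libraries. Earlier results of these data were known when they were chosen. They were the receptor Pdgfra and the proteoglycan Cspg4 of the precursor, the transcription factors Olig1, Olig2, Sox10, Nkx2-2 and Myrf, and the genes Gpr17, Bcas1 and Enpp6 of committed and newly differentiating cells. The animals were adult male C57BL / 6 mice. In the TBI group (3 mice, libraries TBI1, TBI2 and TBI3), a controlled cortical impact of moderate severity was delivered through a craniotomy over the right parietal bone. The sham group (3 mice, libraries Sham1, Sham2 and Sham3) had the same anaesthesia and craniotomy but no impact, so the surgery was common to all 6 animals. Total RNA of the whole dissected hippocampus was sequenced, with 1 library per mouse.

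Oligodendrocyte precursor cells are dividing glia spread through the adult grey and white matter. They are kept in the precursor state mainly by platelet-derived growth factor, which acts through the receptor encoded by Pdgfra, and they leave it by passing through a short committed stage before they make myelin. Olig2, Olig1 and Sox10 are used throughout the lineage, Nkx2-2 and Myrf act towards differentiation, and Myrf is required for the myelin genes. Precursor cells in the brain are known to react to injury nearby by swelling and dividing. Whether the RNA of these genes differed between the TBI and sham groups was the question of the comparison.

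The libraries held 31630936 to 41771872 counts, and 2 of them stood apart from the others in the marker genes of other cells. Sham2 held the highest level of the astrocyte gene Gfap (4055 CPM, that is counts per 1000000 counts of the library, against 541 to 1478 in the other libraries) and of the cytokine gene Lif (90.4 CPM against 0.562 to 1.58), and its summed level of 12 mature oligodendrocyte genes was 3213 CPM against 9585 to 11662. TBI1 held 6 striatal neuron genes at a summed 1948 CPM against 22.1 to 55.1, with the adenosine receptor gene Adora2a at 296 CPM against 2.04 to 4.25. Besides these 2 libraries, TBI3 was also low in the transthyretin gene Ttr of the choroid plexus. Ttr stood at 1896, 26.3 and 1930 CPM in Sham1 to Sham3 and at 201, 2199 and 225 CPM in TBI1 to TBI3. The differences between the groups are therefore given below with all 6 libraries and without Sham2, and without TBI1 where that library mattered. In bulk RNA, fewer cells of a type and less RNA per cell cannot be told apart.

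The promoters of Pdgfra and Enpp6 are shown because these genes had the highest and the lowest level in Sham2 relative to the other sham libraries, as described below. RefSeq promoter sequences (GRCm38.p6) were matched for 5 of the 10 genes, namely Pdgfra, Cspg4, Olig2, Nkx2-2 and Enpp6. Each sequence below holds the 250 bases before the RefSeq start of the gene, read 5′ to 3′ on the plus strand. Capitals mark the E-box CANNTG, the core site of helix-loop-helix factors such as the Olig proteins.
Pdgfra, chr5:75152001-75152250: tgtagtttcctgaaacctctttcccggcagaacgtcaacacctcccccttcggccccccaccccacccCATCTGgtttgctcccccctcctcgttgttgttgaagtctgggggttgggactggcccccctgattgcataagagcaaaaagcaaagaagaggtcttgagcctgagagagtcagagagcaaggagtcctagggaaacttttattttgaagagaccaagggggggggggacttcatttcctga
Enpp6, chr8:46986637-46986886: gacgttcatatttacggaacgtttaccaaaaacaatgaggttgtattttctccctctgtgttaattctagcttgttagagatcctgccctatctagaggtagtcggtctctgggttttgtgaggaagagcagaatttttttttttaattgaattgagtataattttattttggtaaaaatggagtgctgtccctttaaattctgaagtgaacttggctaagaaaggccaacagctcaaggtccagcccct
The Pdgfra window held 1 E-box and 54.4% G and C, and the Enpp6 window held no E-box and 38.4% G and C, against a median of 52.0% over all promoters. An E-box stood in 2 of the 5 matched promoters (Pdgfra and Nkx2-2), and in 66.0% of all 27025 promoters of this length. The letters ACAAAG, a site of the Sox type, stood in 0 of the 5 and in 16.5% of all promoters, and TATAAA stood in 1 of the 5 (Olig2) and in 13.0% of all. Both strands were searched, and each motif was counted on its own. The Olig2 promoter was the richest of the 5 in G and C (66.8%) and held 22 CpG pairs, against 4 each in Pdgfra and Enpp6 and a median of 6 over all promoters.

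All 10 genes were well measured. The lowest count of any gene in any library was 167 (Enpp6 in Sham2), the highest was 23412 (Bcas1 in TBI1), and all 10 passed the filter on low counts that kept 18795 genes. Divided by the length of all annotated exons of a gene, the levels fell into 3 tiers, which were separate within each library. Bcas1 (mean over 6 libraries 109 CPM per kb, range 60.8 to 152) and Olig1 (97.4, range 45.1 to 115) formed the first tier, and their ranges overlapped. Sox10 (20.6 CPM per kb), Olig2 (18.2), Gpr17 (9.75), Myrf (8.71) and Pdgfra (7.22) formed the second, in which the ranges of all neighbours in this order overlapped. The lowest library for Olig1 lay above the highest for Sox10 (32.2 CPM per kb). Enpp6 (2.39 CPM per kb), Nkx2-2 (2.37) and Cspg4 (1.201) formed the third tier, and their highest library (Nkx2-2 at 3.85) lay below the lowest Pdgfra library (5.74) but above Gpr17 in Sham2 (2.68). Enpp6 and Nkx2-2 did not differ beyond their spread, while the highest Cspg4 library (1.41) lay below the lowest Nkx2-2 library (1.61). The length used was that of all exons together and not of the transcript in use, so the order within a tier depends on it.

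**Figure D1:**
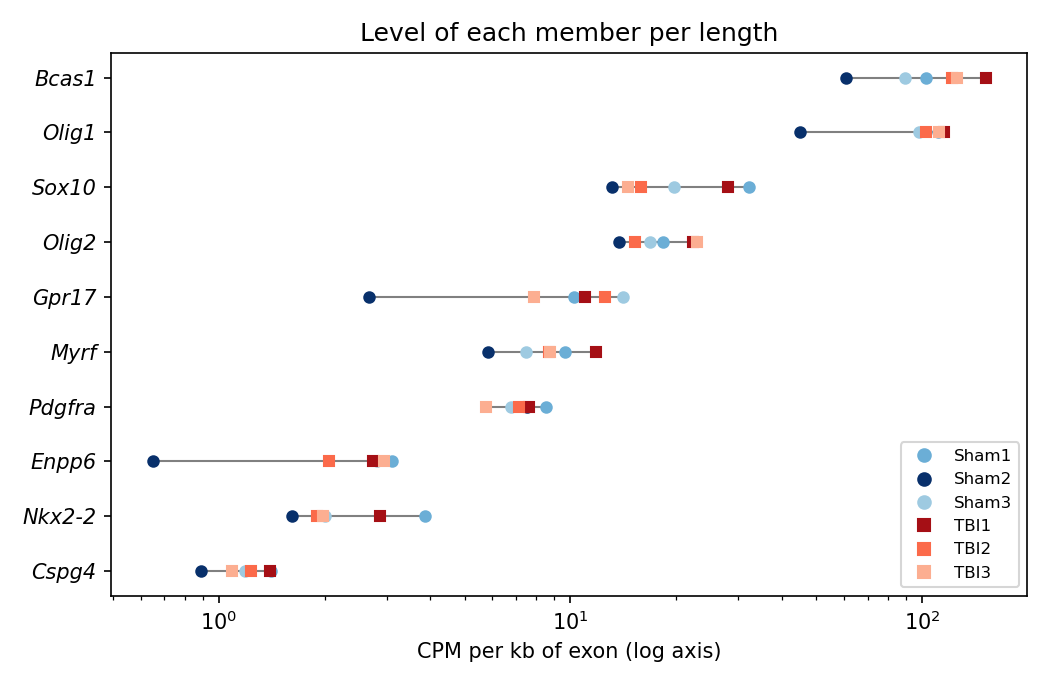
Level of the 10 genes in CPM per kb of annotated exon (log axis), 1 point per library, with circles for sham and squares for TBI and a line from the lowest to the highest library. Bcas1 and Olig1 lay at 45.1 CPM per kb or more in every library, Enpp6, Nkx2-2 and Cspg4 at 3.85 or less, and Sham2 was the lowest library in 9 of the 10 genes.

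The comparison of TBI with sham gave no difference in these genes that passed the test. With edgeR's quasi-likelihood test, 0 of the 10 genes were called by the thresholds of the study (p under 0.05, false discovery rate under 0.1, fold change over 1.5), and 0% of the 18795 genes tested were called by this rule. At an unadjusted p under 0.05 alone, 1 of the 10 genes (Bcas1) differed, beside 4.29% of all genes in either direction and 2.16% with higher levels in TBI. DESeq2 with its default settings, the tool of the study, called 0 of the 10 genes and 0.219% of 20988 genes. The 10 log2 fold changes ran from -0.15 to 0.66, and 7 were above 0 and 3 below. Their median was 0.22, beside a median of 0.0091 over all genes tested. Without Sham2 the split was 4 above and 6 below with a median of -0.11, beside 0.025 over all genes. The direction of the set as a whole thus rested on Sham2.

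**Figure D2:**
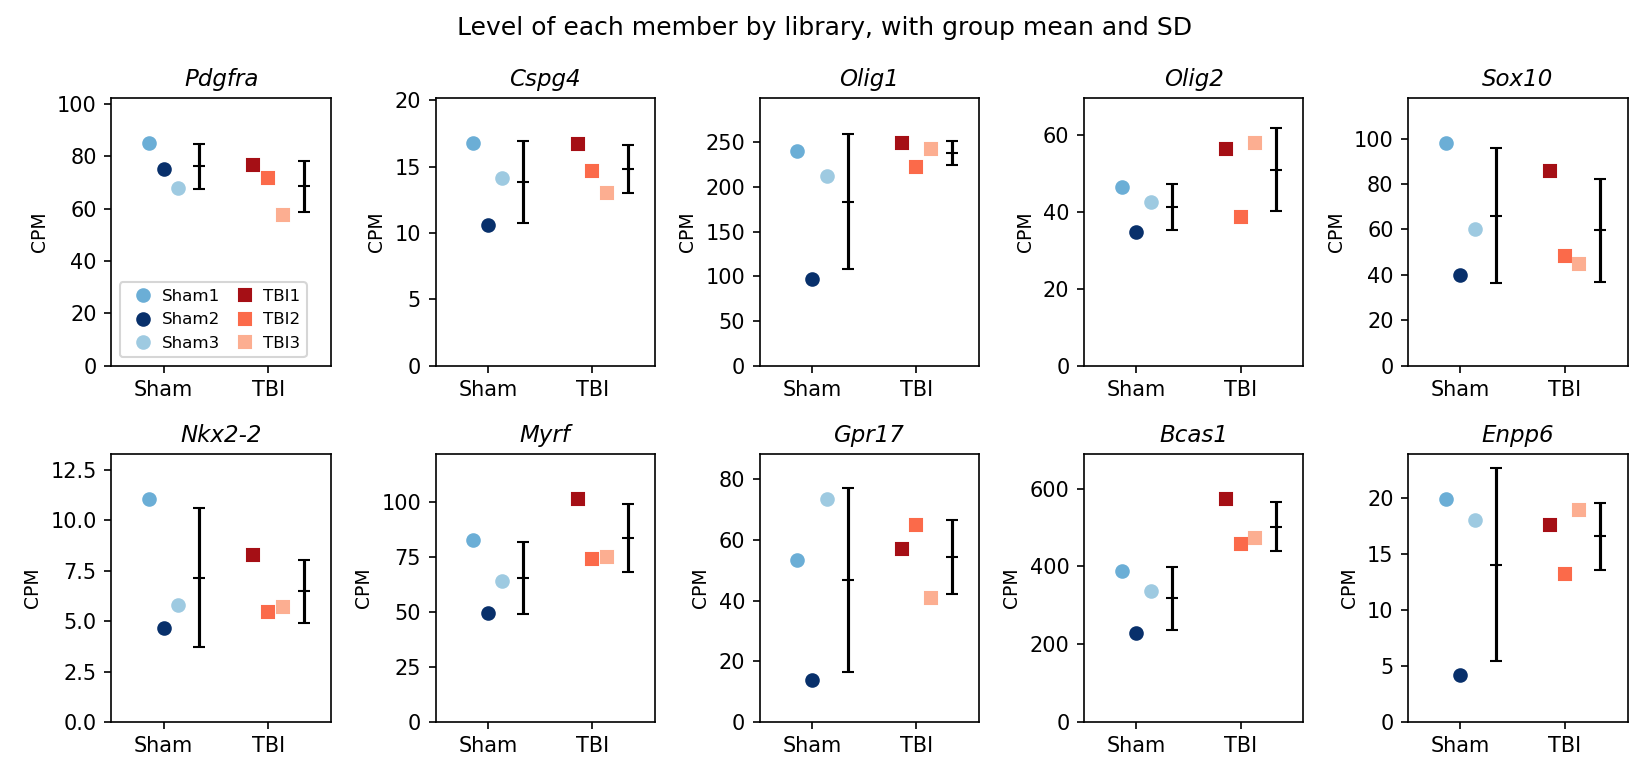
Level in CPM of each of the 10 genes in the 3 sham (circles) and 3 TBI (squares) libraries, with the group mean and SD (n = 3) as a tick and bar to the right of the points. Bcas1 is the gene in which all 3 TBI libraries (458 to 574 CPM) lay above all 3 sham libraries (230 to 388 CPM).

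**Figure D3:**
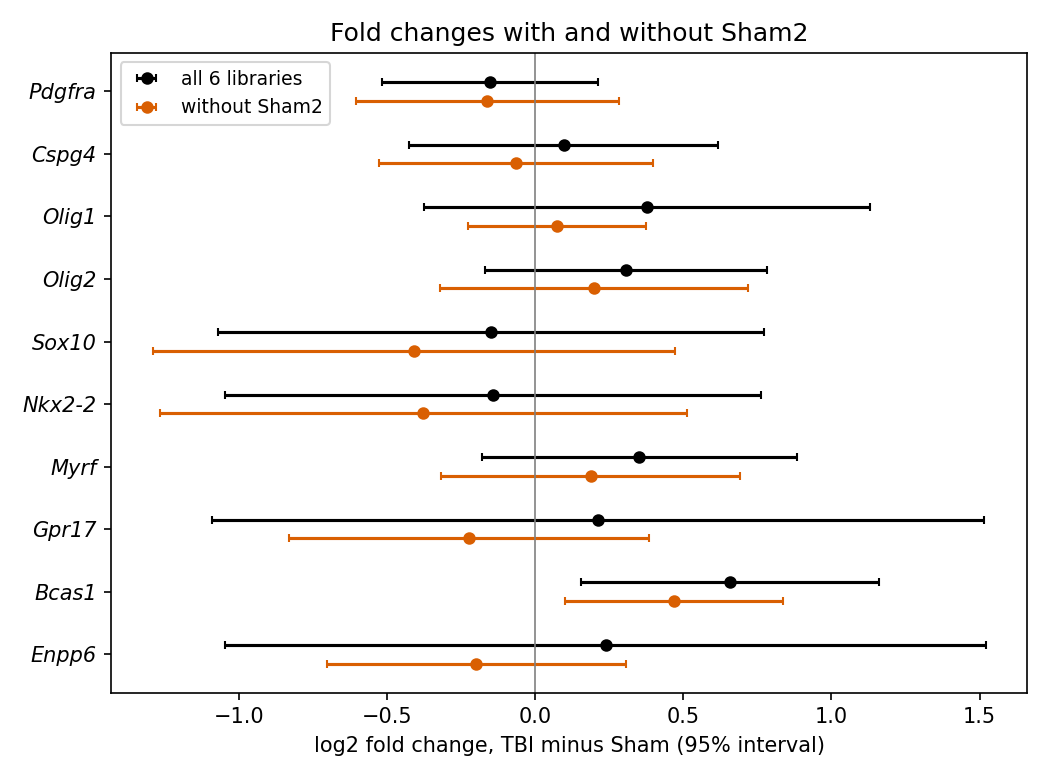
Log2 fold change of each gene, TBI minus sham, with its 95% interval from edgeR, for all 6 libraries (black) and without Sham2 (orange). The Bcas1 interval lay above 0 in both fits (0.15 to 1.16 and 0.099 to 0.84), and the intervals of the other 9 genes held 0 in both.

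Pdgfra encodes the alpha receptor for platelet-derived growth factor, the main mitogen receptor of the precursor cell (GRCm38, chromosome 5, 75152292 to 75198215, plus strand). Its level was 85.3, 75.2 and 68.1 CPM in Sham1, Sham2 and Sham3 and 76.6, 71.6 and 57.6 CPM in TBI1, TBI2 and TBI3. The groups overlapped, with a mean of 76.2 ± 8.64 CPM for sham against 68.6 ± 9.85 CPM for TBI (SD, n = 3). TBI minus sham, the log2 fold change was -0.15 with a standard error of 0.15, and the 95% interval of the fold ran from 0.699 to 1.16. Pdgfra was the only one of the 10 genes whose lowest library was not Sham2, and its log2 fold change was -0.16 without that library. With all 6 libraries it had the narrowest interval of the set on the log2 scale (-0.52 to 0.21), and without Sham2 the interval was -0.61 to 0.28.

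Cspg4 encodes the proteoglycan NG2, a surface protein by which precursor cells are often stained and which pericytes also carry (chromosome 9, 56865033 to 56899870, plus strand). Its level was 16.8, 10.6 and 14.1 CPM in Sham1 to Sham3, against 16.7, 14.7 and 13.0 CPM in TBI1 to TBI3. Sham1 and TBI1 were level at the top and Sham2 was lowest, so the groups overlapped. The log2 fold change was 0.096 with a standard error of 0.22, and -0.065 without Sham2. A list of 8 pericyte and smooth muscle genes, of which Rgs5, Vtn and Pdgfrb were the most abundant, summed to 169 to 254 CPM in sham and 205 to 217 CPM in TBI, with 4 above and 4 below sham and a median log2 fold change of 0.018 (-0.078 without Sham2). A list of 6 fibroblast and meninges genes, a cell class that also uses Pdgfra, summed to 72.2 to 139 CPM in sham and 44.1 to 141 CPM in TBI, and TBI1 was lowest. Their part in the levels of Cspg4 and Pdgfra was not tested.

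Olig1 and Olig2 encode neighbouring helix-loop-helix factors of the lineage, and lie 41094 bases apart on the plus strand of chromosome 16 (91269772 to 91271933 and 91225457 to 91228677). Olig1 stood at 240.2, 97.5 and 212 CPM in Sham1 to Sham3, against 249.5, 223 and 242 CPM in TBI1 to TBI3. Sham2 held less than any other library by a wide margin, and the remaining 5 libraries lay close together. The log2 fold change of Olig1 was 0.38 with a standard error of 0.32, and it was 0.073 with a standard error of 0.12 without Sham2. For Olig2 the levels were 46.3, 34.8 and 42.5 CPM in the sham libraries and 56.4, 38.5 and 58.0 CPM in the TBI libraries. TBI1 and TBI3 lay above all sham libraries while TBI2 lay among them. For Olig2 the log2 fold change was 0.31 with a standard error of 0.20, and 0.20 without Sham2. Thus in Sham2 the paired genes were not lowered alike, as Olig1 stood at 0.431 times and Olig2 at 0.782 times the mean of Sham1 and Sham3.

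Sox10 encodes an HMG-box factor used from the precursor to the myelinating cell (chromosome 15, 79154908 to 79165240, minus strand). Its level was 98.2, 40.1 and 60.1 CPM in Sham1 to Sham3, against 85.8, 48.4 and 44.6 CPM in TBI1 to TBI3. In each group the library numbered 1 was highest, and the other 4 libraries lay at 40.1 to 60.1 CPM. Over all 6 libraries the log2 fold change was -0.15 with a standard error of 0.39. It moved to -0.41 without Sham2, to 0.26 without Sham1 and to -0.77 without both Sham2 and TBI1, where the unadjusted p was 0.026 and edgeR's adjusted p was 0.853. Nkx2-2, a homeobox factor that acts at the start of differentiation (chromosome 2, 147177546 to 147194243, minus strand), had the same order at the top. Its level was 11.1, 4.64 and 5.78 CPM in the sham libraries and 8.28, 5.47 and 5.70 CPM in the TBI libraries. Its log2 fold change was -0.14 with a standard error of 0.38, -0.38 without Sham2, 0.32 without Sham1 and -0.59 without both Sham2 and TBI1. No direction could be given for either gene, since the sign turned without Sham1 and, for Sox10, also without TBI3 (0.016).

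Myrf encodes the membrane-bound factor that turns on the myelin genes in differentiating cells (chromosome 19, 10208272 to 10240748, minus strand). Its level was 82.7, 49.8 and 64.1 CPM in Sham1 to Sham3, against 101.5, 74.3 and 74.9 CPM in TBI1 to TBI3. Sham1 lay above 2 of the TBI libraries, so the groups overlapped. The mean was 65.5 ± 16.5 CPM for sham against 83.6 ± 15.5 CPM for TBI (SD, n = 3). The log2 fold change was 0.35 with a standard error of 0.22, it was 0.19 without Sham2, and it was 0.023 without both Sham2 and TBI1.

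Gpr17 encodes a receptor found in the committed precursor just before it differentiates (chromosome 18, 31942997 to 31949636, minus strand). Its level was 53.3, 13.9 and 73.6 CPM in Sham1 to Sham3, against 57.1, 65.1 and 41.0 CPM in TBI1 to TBI3. Apart from Sham2 the groups overlapped, with Sham3 highest and TBI3 lowest. The log2 fold change was 0.21 with a standard error of 0.55 over all 6 libraries, and -0.22 with a standard error of 0.25 without Sham2. Enpp6, a choline-specific phosphodiesterase gene of newly formed oligodendrocytes whose promoter is shown above (chromosome 8, 46986887 to 47096762, plus strand), had a similar pattern. Its level was 19.95, 4.16 and 18.1 CPM in the sham libraries and 17.6, 13.2 and 18.9 CPM in the TBI libraries. Its log2 fold change was 0.24 with a standard error of 0.54, and -0.20 with a standard error of 0.20 without Sham2. For both genes the sign turned with 1 library, and the 95% interval of the log2 fold change without it was still wide, at -0.83 to 0.38 for Gpr17 and -0.70 to 0.31 for Enpp6.

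Bcas1 encodes a protein of the actin-rich, early myelinating oligodendrocyte and was the gene of the set with the largest difference (chromosome 2, 170346991 to 170427845, minus strand). Its level was 388, 230 and 338 CPM in Sham1 to Sham3, against 574, 458 and 474 CPM in TBI1 to TBI3. Every TBI library lay above every sham library, with Sham2 lowest and TBI1 highest. The mean was 318 ± 81.0 CPM for sham against 502 ± 62.5 CPM for TBI (SD, n = 3), a fold of 1.58 with a 95% interval of 1.11 to 2.23. On the log2 scale the difference was 0.66 with a standard error of 0.21. The unadjusted p was 0.018 and the adjusted p of edgeR's quasi-likelihood test was 0.982, so the difference did not pass the test across all genes. Bcas1 stood at rank 193 of the 18795 genes by p.

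Bcas1 was the only one of the 10 genes whose groups did not overlap, beside 10.2% of all genes tested. The log2 fold change of Bcas1 was above 0 in all 16 alternative fits, from 0.36 to 0.83, with edgeR or DESeq2 adjusted p-values from 0.513 to 0.9999. Leaving out libraries could not turn that sign, since the groups were separate. The log2 fold change of Bcas1 was 0.47 with a standard error of 0.15 without Sham2. There Bcas1 was again the only gene of the set at an unadjusted edgeR p under 0.05, beside 3.39% of 19298 genes. TBI1, the library with the striatal genes, also held the highest Bcas1 level, and without it the log2 fold change was 0.55 and the unadjusted p was 0.054. Without both libraries the log2 fold change was 0.36, with Bcas1 at 388 and 338 CPM in sham against 458 and 474 CPM in TBI. Without Sham2 DESeq2 called 0 of the 10 genes and 0.317% of 19578 genes.

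The count of genes with separate groups depended on single libraries. It was 1 of 10 without Sham2 (Bcas1), beside 20.5% of all genes, and 3 of 10 without Sham1 (Bcas1, Olig1 and Myrf, all higher in TBI), beside 18.1% of all genes. It was 3 of 10 without TBI2 (Bcas1, Olig1 and Olig2, all higher in TBI), beside 21.3%. It was 3 of 10 without both Sham2 and TBI1 (Bcas1 higher, Sox10 and Nkx2-2 lower in TBI), beside 37.1%. Bcas1, separate with all 6 libraries, is in each of these counts by construction.

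The level of Bcas1 was also set against that of the other 9 genes within each library, a ratio that does not depend on the scaling of the library. The ratio of Bcas1 to Pdgfra was 4.55 (Sham1), 3.05 (Sham2) and 4.96 (Sham3), against 7.49 (TBI1), 6.40 (TBI2) and 8.24 (TBI3). The ratio to Cspg4 was 21.7 to 23.9 in sham and 31.2 to 36.4 in TBI, and the ratio to Myrf was 4.61 to 5.26 in sham and 5.65 to 6.33 in TBI. Bcas1 was higher in every TBI than every sham library relative to 5 of the 9 genes (Pdgfra, Cspg4, Sox10, Nkx2-2 and Myrf), beside 48.4% of 18794 other genes, so the share of the set lay near the background. Relative to Olig1, Olig2, Gpr17 and Enpp6 the groups overlapped. Relative to 12 mature oligodendrocyte genes Bcas1 was separate and higher in TBI in 1, the myelin gene Opalin, which was named after its values were seen. These counts depended on Sham2. Without that library they were 7 of the 9 genes (Olig1 and Enpp6 being added) and 12 of the 12 mature oligodendrocyte genes, beside 51.5% of the other genes. The ratio of Bcas1 to Mbp, for example, was 0.166 (Sham1), 0.330 (Sham2) and 0.198 (Sham3), against 0.228 (TBI1), 0.225 (TBI2) and 0.222 (TBI3).

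**Figure D4:**
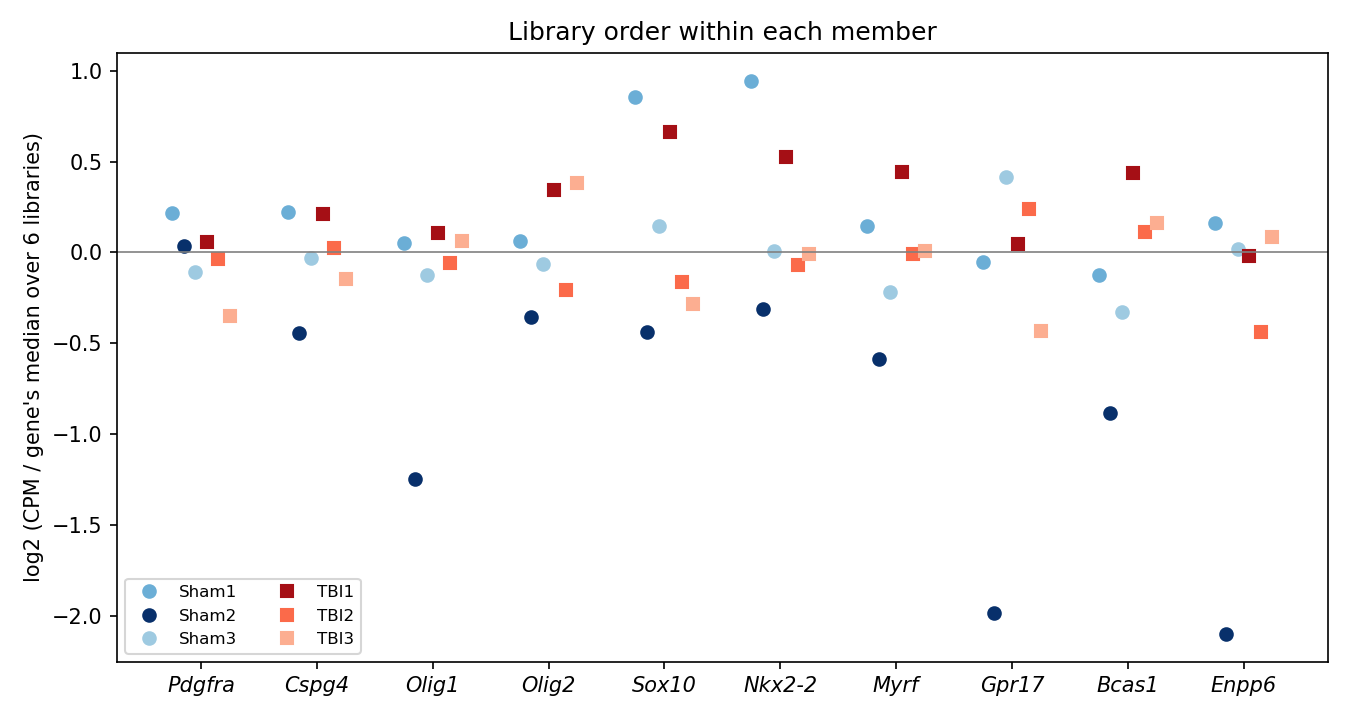
Level of each of the 10 genes in every library, as the log2 of its CPM over the median of the 6 libraries for that gene (0 is the median library). Sham2 is the lowest point in 9 of 10 genes, most so for Enpp6 and Gpr17, while Sham1 and TBI1 are the highest points for Sox10 and Nkx2-2.

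Sham2 was lowest of the 6 libraries in 9 of the 10 genes, beside 23% of all genes tested and 12 of 12 mature oligodendrocyte genes. The summed level of the 10 genes was 1042, 560 and 896 CPM in Sham1 to Sham3, against 1243, 1012 and 1030 CPM in TBI1 to TBI3. Set against the mean of Sham1 and Sham3, Sham2 held 0.981 times the Pdgfra level, 0.782 times Olig2, 0.684 times Cspg4, 0.678 times Myrf and 0.633 times Bcas1. It held 0.550 times the Nkx2-2 level, 0.506 times Sox10, 0.431 times Olig1, 0.220 times Gpr17 and 0.219 times Enpp6. The median over the mature oligodendrocyte genes was 0.292, with a range of 0.067 to 0.474. Gpr17 and Enpp6 thus stood below that median but within that range, and Bcas1 stood above the range. The precursor receptor gene stood near its level in the other sham libraries. This is a description of 1 library and has no replicate, and its cause was not tested.

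The spread between animals of a group differed among the genes. In sham the coefficient of variation was 11.3% for Pdgfra, 14.3% for Olig2, 22.5% for Cspg4, 25.2% for Myrf and 25.4% for Bcas1. It was 41.3% for Olig1, 44.7% for Sox10, 47.9% for Nkx2-2, 61.3% for Enpp6 and 64.6% for Gpr17. In TBI it ran from 5.83% for Olig1 to 38.2% for Sox10. With 3 libraries per group an exact permutation test cannot give a two-sided p below 0.1 for any single gene.

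The other genes of the precursor cell were described by 2 further lists. Of 20 precursor companion genes, all tested, 8 were above sham and 12 below, 0 were called, and the median log2 fold change was -0.11 (-0.13 without Sham2). The most abundant were Ptprz1, Tnr and Epn2, all of them genes that other brain cells use too, with log2 fold changes of 0.23, -0.15 and 0.00076 (0.055, -0.26 and -0.14 without Sham2). Lhfpl3 stood at 34.5, 33.4 and 39.8 CPM in sham and 53.6, 38.9 and 56.1 CPM in TBI, with a log2 fold change of 0.46 (0.41 without Sham2) and an unadjusted p of 0.033 (0.086 without Sham2). C1ql1, which encodes a secreted C1q-like protein, stood at 16.9, 19.2 and 16.3 CPM in sham and 14.6, 13.7 and 11.2 CPM in TBI, with a log2 fold change of -0.41 (-0.34 without Sham2) and an unadjusted p of 0.0495 (0.115 without Sham2). In Lhfpl3 the groups overlapped by TBI2 alone, and in C1ql1 they were separate. Neither passed the adjustment, with edgeR adjusted p-values of 0.982.

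Of 17 differentiation companion genes, 16 were in the files, and 8 were above sham and 8 below with a median log2 fold change of 0.058 (-0.024 without Sham2) and 0 called. The kinase gene Fyn, the adhesion gene Tns3 and the deacetylase gene Sirt2 were the most abundant, with log2 fold changes of -0.13, 0.37 and 0.21 (-0.088, 0.18 and 0.070 without Sham2). Rras2, which encodes a small GTPase, stood at 28.1, 19.6 and 19.2 CPM in sham and 9.65, 15.8 and 14.5 CPM in TBI. All 3 TBI libraries lay below all sham libraries, with a log2 fold change of -0.74 and a standard error of 0.25. The unadjusted p was 0.023 and edgeR's adjusted p was 0.982. Without Sham2 the log2 fold change was -0.83 and the unadjusted p was 0.027. Of the 16 genes, 3 had separate groups, beside 10.2% of all genes tested, and those other than Rras2 were higher in TBI.

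Several ligand genes that act on the precursor cell stood apart in Sham2. Of 12 ligand genes, 4 were above sham and 8 below, with a median log2 fold change of -0.18 (-0.16 without Sham2) and 0 called. Pdgfa, the ligand of the Pdgfra receptor, was level at 38.5 to 48.1 CPM in all 6 libraries with a log2 fold change of 0.0074. Lif, a cytokine of the interleukin-6 family that is known to act on oligodendrocytes, had 3627 counts in Sham2 and 20 to 64 in the other 5 libraries. Its log2 fold change of -4.94, with an unadjusted p of 0.034, was -0.23 without Sham2, with an unadjusted p of 0.715. Fgf2, a mitogen of the precursor, stood at 59.1 CPM in Sham2 and 0.534 to 11.8 CPM elsewhere, and Pdgfb at 51.2 CPM in Sham2 and 14.7 to 28.5 CPM elsewhere.

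Of 15 receptor genes for these ligands, 8 were above and 7 below sham, with a median log2 fold change of 0.020 (-0.013 without Sham2) and 0 called. Bmpr2, a receptor of bone morphogenetic proteins, and Fgfr1, a fibroblast growth factor receptor, were among the most abundant, with log2 fold changes of -0.19 and -0.65 (-0.038 and -0.19 without Sham2). Fgfr3, a related receptor also found in astrocytes, was 109, 86.8 and 86.0 CPM in sham and 134, 107 and 143 CPM in TBI, with a log2 fold change of 0.44 (0.39 without Sham2) and an unadjusted p of 0.030 (0.083 without Sham2). Ptch1, the receptor of sonic hedgehog, was 53.3, 41.8 and 72.4 CPM in sham and 94.2, 65.2 and 112 CPM in TBI, with a log2 fold change of 0.70 (0.52 without Sham2) and an unadjusted p of 0.037 (0.1004 without Sham2). In both genes 1 TBI library (TBI2) lay within the sham range. Of 8 inhibitors of differentiation, 4 were above and 4 below sham with a median log2 fold change of 0.015 (0.049 without Sham2) and 0 called. Among them Lingo1, a membrane protein of neurons and oligodendrocytes that holds back myelination, was 228, 344 and 226 CPM in sham and 186, 192 and 133 CPM in TBI. The groups of Lingo1 were separate, its log2 fold change was -0.64 with an unadjusted p of 0.025, and these were -0.42 and 0.067 without Sham2. Id2 and Id4, which bind helix-loop-helix factors, had log2 fold changes of 0.038 and 0.53 (0.36 and 0.11 without Sham2), and Id4 stood at 40.9 CPM in Sham2 and 162 to 194 CPM elsewhere.

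The 12 mature oligodendrocyte genes lay 11 above and 1 below sham with 0 called and a median log2 fold change of 0.34, which was -0.053 without Sham2. Mobp and Mbp, which encode major myelin proteins, were among the most abundant. The log2 fold changes of Mobp and Mbp were 0.61 and 0.50 over all libraries and 0.25 and 0.15 without Sham2. The median log2 fold change was -0.044 for the astrocyte genes (0.086 without Sham2, and 0.20 without Sham2 and TBI1), 0.39 for the microglial genes (0.29, and -0.0027 without both libraries), -0.056 for the neuronal genes (-0.080, and -0.063 without both) and -0.59 for the hippocampal neuron genes (-0.70, and -0.45 without both libraries). It was -0.058 for the endothelial genes (-0.034 without Sham2, and -0.18 without both), -0.48 for the choroid plexus genes (-1.04, and -0.63 without both), -0.24 for the fibroblast and meninges genes (-0.00072, and 0.24 without both) and 3.74 for the striatal genes (4.05), the last set by TBI1 (0.29 without Sham2 and TBI1). The part of these cells in the levels of the 10 genes was not tested.

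**Figure D5:**
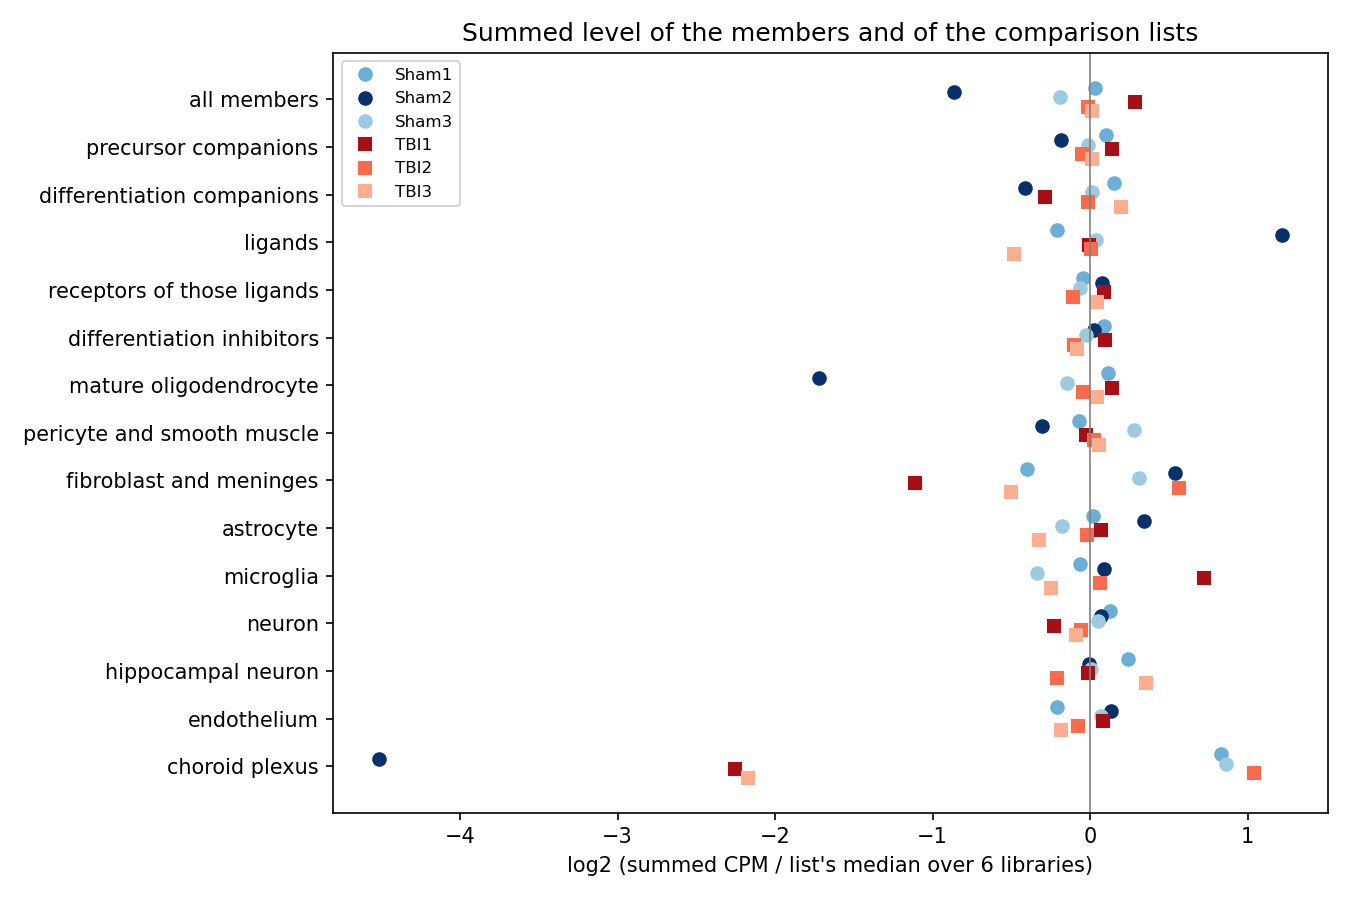
Summed level of each gene list in every library, as the log2 of the summed CPM over the median of the 6 libraries for that list. Sham2 is lowest for the 10 genes and for the mature oligodendrocyte genes. It is also lowest for both companion lists, the pericyte and smooth muscle genes and the choroid plexus genes. Sham2 is highest for the ligands, the astrocyte genes and the endothelial genes, while the receptor and inhibitor lists stay close to 0 in all libraries. The striatal list, at 1948 CPM in TBI1, is not drawn.

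Some members share annotated sequence with other genes on the opposite strand, and it was not given whether the counting used the strand. Bcas1 shares 440 exonic bases (11.66% of its exons) with the antisense gene Bcas1os1, which stood at 10.7 to 23.8 CPM in sham and 17.7 to 28.1 CPM in TBI, with a log2 fold change of 0.46 and an unadjusted p of 0.218. Nkx2-2 shares 278 bases (9.67%) with Nkx2-2os, which stood at 1.22 to 4.24 CPM, below the 4.64 to 11.1 CPM of Nkx2-2. Gpr17 lies within Lims2, with 188 shared bases (3.62%), and Lims2 stood at 3.26 CPM in Sham2 and 8.82 to 11.7 CPM elsewhere. Reads in the shared bases cannot be assigned to 1 of the genes of a pair without the strand. Among the 45 pairs of the 10 genes, 0 shared a run of 31 bases in their exons.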

How the data were processed

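RNA of 3 sham and 3 TBI hippocampi was sequenced on Illumina instruments. Per the labels and the study's methods, the authors used FastQC for read quality, HISAT2 for alignment to GRCm38 and StringTie for quantification. The authors deposited 1 file of expected counts (estimated counts, as whole numbers, not normalized) per mouse. The value 4 occurred more often than the value 3 (5109 against 2325 times), and no other values were compared in this way. The deposited values were therefore not read as numbers of reads, and no counting error is drawn from them. The versions of those tools, the strandedness and the annotation release were not given in the sources used here.

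The deposited values were whole and were used as they were. Of 52550 gene IDs, 52403 were matched to a symbol with GENCODE vM21 (GRCm38). Group and library number were taken from the sample titles. Tests were run in R 4.3.3 with the packages edgeR 4.0.16 and limma 3.58.1, using filterByExpr by group, TMM scaling (factors 0.970 to 1.02), glmQLFit and glmQLFTest over all genes, with Benjamini-Hochberg adjustment. The thresholds of the study defined a call: p under 0.05, false discovery rate under 0.1, fold change over 1.5. Standard errors were derived from that fit, as the absolute log2 fold change over the square root of the quasi-likelihood F statistic. The 95% intervals use that standard error and the t distribution with the degrees of freedom of the fit. CPM are per 1000000 TMM-scaled counts. DESeq2 1.42.0, the tool of the study, other scalings and filters, each library left out, and the library number as a replicate block were alternatives. The fits without Sham2 and TBI1 together, DESeq2 without Sham2, and the ratios of Bcas1 without Sham2 were added after seeing the data. The scripts were tested on simulated data.

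The 10 genes and all lists were chosen with earlier results of these data known. Named are the 10 genes, genes whose exons overlap them and, of each list, the 3 most abundant tested genes and those with an unadjusted p under 0.05. The labels give no pairing of the animals. The deviations of same-numbered sham and TBI libraries from their group means had correlations of -0.125, -0.068 and 0.200. The highest of any sham and TBI library was 0.238 (Sham2 with TBI1). With so few libraries these values can neither show nor exclude a pairing. P-values measure the spread between 3 mice per group. The values of 1 gene that this rule names are not reported here.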

Additional observations from a re-analysis of the deposited data

How the results depend on the processing

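The number of the 10 genes called was 0 under every alternative run, by edgeR and by DESeq2. The number of all genes called was 0 with edgeR, 46 with DESeq2 defaults, 43 with DESeq2 on the filtered genes, 62 with DESeq2 without Sham2 and 3 with edgeR without Sham2 and TBI1. With 1 library left out it ran from 0 to 1, the 1 being without TBI1. The median log2 fold change of the 10 genes was -0.20 without Sham2 and TBI1 and ran from -0.11 (without Sham2) to 0.37 (without Sham1) with 1 library left out. The genes with separate groups numbered 3 without Sham2 and TBI1, and 1 to 3 with 1 library left out (3 without Sham1 or TBI2). The cause of these shifts was not tested. The sign of the log2 fold change of 5 genes turned. For Cspg4, Gpr17 and Enpp6 it was -0.16, -0.26 and -0.24 without Sham2 and TBI1, -0.074, -0.23 and -0.21 with DESeq2 without Sham2, and with 1 library left out it ran from -0.065 to 0.27, -0.22 to 0.68 and -0.20 to 0.58, the negative values being those without Sham2. For Sox10 it ran from -0.51 (without TBI1) to 0.26 (without Sham1), with 0.016 without TBI3, and for Nkx2-2 from -0.38 to 0.32 (without Sham1), and without Sham2 and TBI1 these were -0.77 and -0.59. Pdgfra, Olig1, Olig2, Myrf and Bcas1 kept their sign in all 16 alternatives. For Bcas1, whose groups were separate, leaving out libraries could not have turned it. With the replicate block, which assumes a pairing that the labels do not give, 0 of the 10 genes and 0 of all genes were called, and the median was 0.33. The common biological coefficient of variation was 0.374, and with 3 mice per group the smallest adjusted p of any gene was 0.226.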
